A study of Mus musculus with 2 samples.

Results

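The genes of 5 subunits of the phagocyte NADPH oxidase, Cybb, Cyba, Ncf1, Ncf4 and Rac2, were followed through the immune cells of mouse liver metastases. They were chosen by symbol as 5 of the 56941 features in the count matrices, not by their measured values. Earlier results of these data were known when they were chosen. Each symbol matched 1 feature. Mice of the C57BL/6 strain, 6 to 8 weeks old, received intrasplenic injections of MC38-LM3b cells, a metastatic derivative of the MC38 mouse colon carcinoma line, and the liver lesions were taken 2 weeks later. The tumor cells carried either a scrambled control hairpin (Ctrl) or a hairpin against SLAMF3 (KD). The host immune cells carried neither hairpin, so each difference below lies between immune cells of hosts bearing differently treated tumors. CD45+ cells pooled from 3 mice per group made up 1 droplet-based 3' single-cell library per group.

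The phagocyte NADPH oxidase moves electrons from NADPH across a membrane onto oxygen and so makes superoxide, the source of the oxidative burst with which neutrophils and macrophages kill microbes. In the resting cell the catalytic subunit sits in the membrane with its partner as a flavocytochrome, while the organizing subunits wait in the cytosol. On activation the cytosolic subunits and a Rac GTPase move to the membrane and switch the enzyme on. Loss of its subunits causes chronic granulomatous disease, and in tumors the oxidants of myeloid cells are known to restrain T cells.

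In the figures and text a level is the number of unique molecular identifiers (UMIs, 1 per captured mRNA molecule) of a gene in a cell class, divided by all UMIs of the class in that library and scaled to the usual unit CPM. With 1 library per group there was no replicate and no test of the groups was possible. Each level is therefore given with an exact 95% Poisson interval and each KD over Ctrl ratio with an exact binomial interval, and both cover counting error only. The libraries held 67207234 and 64444715 UMIs in 10416 Ctrl and 10943 KD barcodes. Filters kept 9814 and 10185 cells with medians of 5411.5 and 4989 UMIs, and 27 barcodes occurred in both libraries. Clusters were named from marker genes, and the 5 subunits took no part in the clustering. Every class named below rested on at least 3 detected markers. Cluster 2, led by Hcar2 and Csf1, was the largest granulocyte cluster in both libraries, with 692 of 837 granulocytes in Ctrl and 1125 of 2396 in KD. Cluster 7, led by Retnlg and S100a8, held 78 granulocytes in Ctrl and 994 in KD. The macrophages comprised 4100 Ctrl and 2995 KD cells, and cluster 12, led by Pf4 and Arg1, held 18 of the first and 630 of the second.

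Genomic sequence is shown for the start regions of the subunits because Cybb and Ncf1 were largely restricted to myeloid and B lineage cells while Cyba was measured in every class. Of the 5 subunits, 3 had an entry in the RefSeq promoter table of build GRCm38.p6, which reaches from 250 bases before to 50 bases after the annotated start. The UMI counts were made on GRCm39, so these positions belong to the older build only. The windows lie on the minus strand at chrX:9469275-9469574 for Cybb, chr8:122432891-122433190 for Cyba and chr5:134229576-134229875 for Ncf1. Capitals mark matches, on either strand, to GAGGAA, the core bound by the myeloid factor PU.1 (encoded by Spi1), to GAAANNGAAA, the core of interferon response elements, or to GGAANNGAAA, an element shared by PU.1 and interferon regulatory factors such as Irf8.
Cybb: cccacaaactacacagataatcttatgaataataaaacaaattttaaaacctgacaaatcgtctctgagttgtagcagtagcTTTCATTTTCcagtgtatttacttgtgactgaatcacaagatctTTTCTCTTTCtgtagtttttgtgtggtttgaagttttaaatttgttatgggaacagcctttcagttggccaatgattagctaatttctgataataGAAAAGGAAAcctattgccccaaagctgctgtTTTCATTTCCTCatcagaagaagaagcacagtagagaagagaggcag
Ncf1: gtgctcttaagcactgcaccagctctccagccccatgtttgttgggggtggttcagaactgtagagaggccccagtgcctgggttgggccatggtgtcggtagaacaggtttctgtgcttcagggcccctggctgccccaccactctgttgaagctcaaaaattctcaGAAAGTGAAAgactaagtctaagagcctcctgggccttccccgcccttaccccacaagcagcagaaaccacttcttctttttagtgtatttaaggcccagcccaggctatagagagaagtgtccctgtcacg
Cyba: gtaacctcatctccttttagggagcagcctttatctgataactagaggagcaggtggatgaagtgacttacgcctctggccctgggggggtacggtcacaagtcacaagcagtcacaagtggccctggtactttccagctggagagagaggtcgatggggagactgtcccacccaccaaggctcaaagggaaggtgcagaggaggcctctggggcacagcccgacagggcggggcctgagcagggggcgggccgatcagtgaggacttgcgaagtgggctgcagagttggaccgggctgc
The Cybb window held 3 matches to GAAANNGAAA, which occurs in 3.44% of the 32851 windows of the table, and 1 match to GGAANNGAAA, which occurs in 2.72%. The latter overlapped a match to GAGGAA, which occurs in 28.3%, just downstream of the start. The Ncf1 window held 1 match to GAAANNGAAA, and the Cyba window held no match to any of these letters. A match describes the letters of the window and not the binding of a factor. Ncf4 and Rac2 both lie on chromosome 15 in the GRCm38 annotation, at 78244801 to 78262580 on the plus strand and at 78559167 to 78572783 on the minus strand. In the same annotation Ncf1 overlaps Gtf2ird2 and Cyba overlaps Gm20388, each on the opposite strand. How strand was used in counting is not given in the sources used here. Any part of reads from these opposite-strand genes in the subunit counts was not tested.

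Cybb encodes gp91phox, the catalytic subunit that carries the electrons. Its level in macrophages was 775.3 CPM in Ctrl (95% interval 764.7 to 786.1) and 878.7 in KD (866.8 to 890.8). In plasmacytoid dendritic cells (pDCs) it was 1116 (1025 to 1214) and 1036 (946.1 to 1133), from 82 and 73 cells. Kupffer cells, the resident liver macrophages, held 1076 and 999.1 CPM from only 48 and 83 cells. These 3 classes stood above all others in both libraries. B cells (286.6 and 271.1 CPM), granulocytes (274.8 and 263.5) and conventional dendritic cells (cDCs, 241.2 and 277.9) followed, and neighbours among these 3 overlapped between the libraries. T cells had 20.2 CPM in Ctrl and 26.7 in KD, and NK cells 15.99 and 18.81. The cluster named NK cells, with 1174 cells, was led by Lef1 and Tcf7 as well as by NK receptor genes. At resolution 1.0 only 401 cells were named NK cells, and a cluster of 769 cells led by Lef1 and Tcf7 was named T cells. The levels given here and below for NK cells may therefore include those of T cells.

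The low Cybb level of T cells was set against genes that macrophages alone should express. It came to 2.61% of the macrophage level in Ctrl and 3.03% in KD. For 9 genes restricted to macrophages, the same percentage had a median of 2.05% with a range of 1.91% to 2.71% in Ctrl, and a median of 2.06% with a range of 1.35% to 3.20% in KD. Cybb in T cells thus lay within the range of these genes in both libraries, near its upper end. Whether this level is background or expression was not tested. Among the T cell clusters it ran from 11.4 CPM in cluster 1 to 36.5 in cluster 9 in Ctrl, and from 16.8 to 40.6 in KD. A count of 10 or more Cybb UMIs was found in 10 Ctrl and 4 KD T cells, and the parts of free RNA and of doublets in this level were not tested. In B cells Cybb reached 37.0% and 30.9% of the macrophage level, above all 9 restricted genes, which ran from 3.12% to 18.8% in Ctrl and from 2.12% to 11.6% in KD. With each cell thinned to 1500 UMIs, 59.5% of Ctrl and 67.4% of KD macrophages held a Cybb UMI, against 1.78% and 3.44% of T cells. Without thinning the shares were 83.9% and 92.8% for macrophages (median 5568.5 and 7413 UMIs per cell) and 7.62% and 9.53% for T cells (6605 and 5602.5). Thinning left out 292 and 116 macrophages and 180 and 46 T cells.

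Cyba encodes p22phox, which stabilizes the catalytic subunit in the membrane and docks the organizer subunit. It was measured throughout the CD45+ cells. Macrophages were highest with 1871 CPM in Ctrl (1855 to 1888) and 1963 in KD (1945 to 1981), followed by Kupffer cells with 1721 and 1833. Granulocytes (1045 and 1287 CPM) and cDCs (1153 and 1074) overlapped in the order. The lymphoid classes ranged from 466.0 CPM in KD NK cells to 711.0 in KD T cells. T cells held 34.9% of the macrophage level in Ctrl and 36.2% in KD, above the 9 macrophage-restricted genes. The lowest levels were those of cells that had passed the CD45+ enrichment without being leukocytes, with 285.7 and 276.1 CPM in endothelial-like and 219.2 and 290.0 in tumor- or fibroblast-like cells.

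Ncf1 encodes p47phox, the organizer whose phosphorylation unlocks assembly. Its highest Ctrl level was in pDCs with 626.6 CPM (558.5 to 700.8), and granulocytes had 427.0 (400.5 to 454.8). In KD the granulocytes had 349.9 CPM (337.4 to 362.7) and the pDCs 339.0 (288.2 to 396.2). The pDCs thus stood above the granulocytes in Ctrl, the intervals overlapped in KD, and all other classes lay below both in each library. Kupffer cells (162.9 and 151.1 CPM), cDCs (140.3 and 139.4) and macrophages (131.7 and 144.9) formed a middle group. B cells had 102.1 and 91.2 CPM, and T and NK cells stayed between 15.38 and 18.63.

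Ncf4 encodes p40phox, which binds a phosphoinositide of the phagosome membrane. Granulocytes were highest in both libraries with 292.9 CPM (271.0 to 316.1) in Ctrl and 328.3 (316.3 to 340.8) in KD. Macrophages had 218.7 CPM in each library, and cDCs had 145.8 and 129.3. B cells (83.6 and 86.5), T cells (89.0 and 78.8) and Kupffer cells (63.7 and 97.5) could not be ordered. Unlike Cybb, Ncf4 in T cells came to 40.7% and 36.0% of the macrophage level, far above the macrophage-restricted genes. The pDCs, high in Cybb and Ncf1, held few Ncf4 UMIs, 22 in Ctrl and 29 in KD, or 44.9 and 62.2 CPM.

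Rac2 encodes the GTPase of blood cells that activates the assembled enzyme and also drives the actin cytoskeleton. Its level in T cells was 536.4 CPM in Ctrl (527.4 to 545.5) and 579.7 in KD (565.7 to 594.0). Granulocytes had 506.2 (477.3 to 536.4) and 591.8 (575.5 to 608.4), so these 2 classes overlapped in the order. Then came pDCs with 426.6 and 482.8 CPM and NK cells with 394.3 and 423.4. Macrophages, highest for Cyba, were the lowest immune class for Rac2 with 168.1 and 167.3 CPM. Endothelial-like cells held 41.0 and 49.6 CPM.

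**Figure D1:**
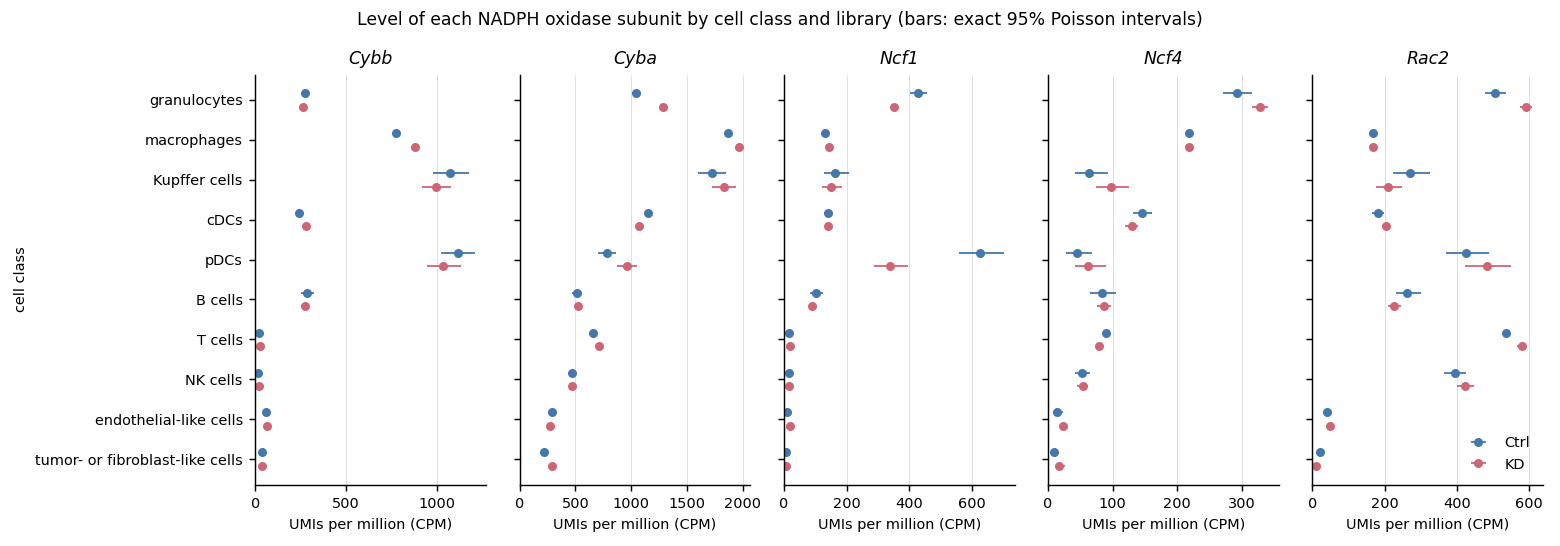
Each panel plots the level of 1 subunit gene in CPM (linear axis from 0) for 10 cell classes, with Ctrl in blue and KD in red and bars for exact 95% Poisson intervals. Cybb is high in macrophages, Kupffer cells and pDCs, Ncf1 in pDCs and granulocytes, Ncf4 in granulocytes, and Rac2 in T cells and granulocytes, while Cyba is present in every class.

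Among the 6 classes compared between libraries (granulocytes, macrophages, cDCs, pDCs, B cells and T cells), 2 of the 5 subunits were highest in granulocytes or macrophages in both libraries. These were Cyba in macrophages and Ncf4 in granulocytes. Cybb was highest in pDCs in both. Ncf1 was highest in pDCs in Ctrl and in granulocytes in KD, and Rac2 was highest in T cells in Ctrl and in granulocytes in KD. No class thus held the top level of all 5 subunits. Detection of subunits in the same cell was counted with each cell thinned to 1500 UMIs. Cybb and Cyba occurred together in 51.1% of Ctrl and 60.3% of KD macrophages. The share in granulocytes was 11.5% and 11.4%, although the mean number of subunits detected was close to that of macrophages (2.17 and 2.20 in granulocytes, 2.06 and 2.22 in macrophages). In T cells it was 1.09% and 2.04%.

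The comparison of KD with Ctrl asked whether the subunits of immune cells differed with the hairpin carried by the tumor. Of 30 pairs of a subunit and a class, 1 was at least 1.5-fold apart, namely Ncf1 in pDCs. The log2 ratios of the other 29 pairs ran from -0.29 to 0.47. The counting interval lay above 0 in 12 pairs, below 0 in 4 and held 0 in 14. The same count over all genes was not made, so this split has no reference and is not read as a result about the subunits. In the 4 classes outside this comparison, the ratios past 1.5-fold rested on few UMIs, such as 10 in Ctrl and 83 in KD for Ncf1 of endothelial-like cells, at 1.15 (0.20 to 2.26).

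**Figure D2:**
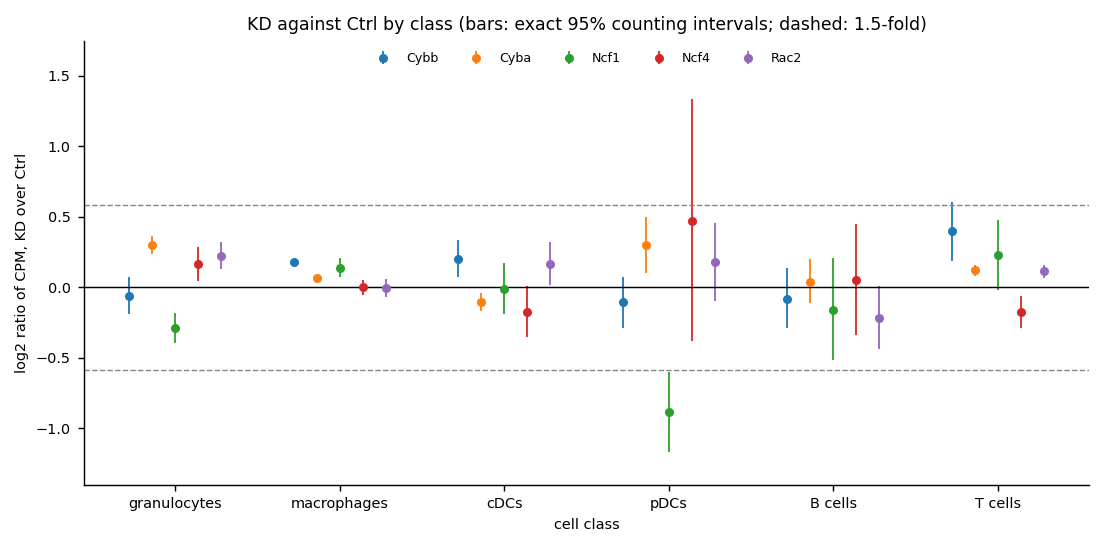
The vertical axis gives the log2 ratio of CPM, KD over Ctrl, for the 5 subunits in each of 6 classes, with exact 95% counting intervals and dashed lines at 1.5-fold. Ncf1 in pDCs, at -0.89, is the only point past a dashed line, and the wide bar of Ncf4 in pDCs rests on 22 and 29 UMIs.

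In macrophages 0 of 5 subunits passed 1.5-fold in either direction, against 4.41% of 10010 genes higher and 7.15% lower in KD. Genes counted here held at least 200 UMIs over both libraries. Cybb was 0.18 higher in KD on the log2 scale (0.15 to 0.21), Ncf1 0.14 (0.07 to 0.21) and Cyba 0.07 (0.05 to 0.09). With the 7 larger macrophage sub-clusters given the same weights in both libraries, Cyba turned to -0.06. Ncf4, at -0.00 (-0.05 to 0.05), and Rac2, at -0.01 (-0.07 to 0.06), were not distinguished between libraries, and counting error alone leaves no room for a difference of 1.5-fold. The median over the 5 subunits was 0.07, beside -0.03 over all genes tested. Summed granulocyte markers in macrophages were 348.1 CPM in Ctrl and 1314 in KD, and their part in these ratios was not tested.

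In granulocytes 0 of 5 subunits passed the threshold, against 12.7% of 4614 genes higher and 13.5% lower. Cyba was 0.30 higher in KD (0.24 to 0.37), Rac2 0.23 (0.13 to 0.32) and Ncf4 0.16 (0.04 to 0.29), whereas Ncf1 was lower at -0.29 (-0.39 to -0.18). Cybb, at -0.06 (-0.19 to 0.07), was not distinguished. The subunit median was 0.16 and that of all genes 0.05. Scaling by TMM factors, which rest on genes of typical ratio, raised every log2 ratio of granulocytes by 0.11, which put Cybb at 0.05 and changed the sign of no other subunit. Beside these values, summed granulocyte markers were 65890 CPM in Ctrl and 111100 in KD, and T cell markers 556.2 and 203.1.

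In cDCs 0 of 5 subunits passed, against 3.36% of 5057 genes higher and 3.62% lower. Cybb was 0.20 higher in KD (0.07 to 0.34) and Rac2 0.17 (0.01 to 0.32), and Cyba was lower at -0.10 (-0.17 to -0.04). When cells were classed by their own markers, Rac2 turned to -0.12 and Ncf4 from -0.17 to 0.18, and Cybb passed 1.5-fold at 0.63. Summed granulocyte markers in cDCs were 426.1 and 1036 CPM, and their part was not tested. In B cells 0 of 5 passed, against 1.31% of 2985 genes higher and 2.38% lower, and no subunit was distinguished. The widest B cell interval was that of Ncf4, at 0.05 (-0.34 to 0.45). In T cells 0 of 5 passed, against 3.35% of 9440 genes higher and 2.54% lower. Cyba was 0.12 higher in KD T cells (0.08 to 0.16) and Rac2 0.11 (0.07 to 0.15), and Ncf4 was lower at -0.18 (-0.29 to -0.06), though at 0.09 after thinning to 1500 UMIs. Summed granulocyte markers in T cells were 116.3 CPM in Ctrl and 1072 in KD, and their part in these ratios was not tested. The Cybb ratio of T cells, 0.40 (0.19 to 0.61), compares 2 levels that lay within the range of macrophage-restricted genes, and it was 0.73 without likely doublets.

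In pDCs 4 of the 5 subunits held 200 UMIs, and of these 0 were higher, against 2.57% of 777 genes, and 1 was lower, against 7.46%. Ncf1 was 626.6 CPM in Ctrl and 339.0 in KD, a log2 ratio of -0.89 (-1.17 to -0.60). Cyba was 0.30 higher in KD (0.10 to 0.50), and Cybb and Rac2 were not distinguished, at -0.11 (-0.29 to 0.07) and 0.18 (-0.10 to 0.46). The share of pDCs with an Ncf1 UMI differed little, 79.3% in Ctrl and 76.7% in KD, or 47.5% and 44.3% after thinning. The median pDC held 2 Ncf1 UMIs in Ctrl and 1 in KD, and 9 Ctrl but 2 KD cells held 10 or more. The 9 Ctrl cells with the most Ncf1 carried 43.7% of its UMIs, and the 8 such KD cells carried 38.6%. The defining pDC markers were alike in sum, 5488 and 5433 CPM, with all 8 detected in each library. Summed granulocyte markers were 67.4 CPM in Ctrl, with 6 of 12 at 0, and 1318 in KD, with 1 at 0. Macrophage markers came to 2012 CPM in Ctrl and 2775 in KD, and Kupffer cell markers to 0 and 40.8. The part of RNA from other classes in the Ncf1 ratio was not tested. This ratio rests on 82 and 73 cells from 1 pool of mice each.

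Re-clustering the granulocytes gave 9 sub-clusters, among which the subunit levels differed widely. Sub-cluster 4, led by Camp, Ngp and Ltf, the secondary granule genes of immature neutrophils, had a Cybb level of 1201 CPM in Ctrl (1041 to 1378) and 1008 in KD (949.7 to 1069). Sub-cluster 1, led by Lypd6b, Cxcl3 and Cxcr1, had 61.2 CPM in Ctrl and 35.4 in KD. Sub-clusters 2 and 3, with 95.4% and 97.6% of their cells from KD, had 48.1 and 73.1 CPM there. Cybb mRNA of granulocytes was thus concentrated in few of them. Sub-cluster 4 held 7.48% of all granulocyte UMIs but 32.7% of the Cybb UMIs in Ctrl, and 13.0% and 49.8% in KD. It was singled out after its values were seen and has only 29 Ctrl and 162 KD cells. A further 24.0% of Ctrl and 25.7% of KD Cybb UMIs lay in sub-cluster 5, which was led by Ms4a6c and Cd74 and carried 11 macrophage markers.

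Ncf1 had another pattern. It was highest in sub-cluster 0, led by the interferon-induced genes Cxcl10 and Gbp5, with 615.4 CPM in Ctrl and 596.0 in KD, while sub-cluster 1 had 283.7 and 282.2. Sub-cluster 4 had 331.2 CPM in Ctrl and 514.4 in KD, where its interval (473.0 to 558.5) overlapped that of sub-cluster 0 (541.8 to 654.2). In Ctrl sub-cluster 2, with 30 cells, also overlapped sub-cluster 0, at 525.4 (351.8 to 754.5), as did sub-cluster 8, with 5 cells, at 317.0 (136.8 to 624.5). Sub-cluster 6 overlapped it in both libraries, at 503.8 (202.6 to 1038) in Ctrl and 439.5 (320.6 to 588.1) in KD. Sub-cluster 0 held 485 of 837 Ctrl but 309 of 2396 KD granulocytes. Within sub-clusters 0 and 1 Ncf1 was not distinguished between libraries, at -0.05 (-0.23 to 0.13) and -0.01 (-0.29 to 0.28). These were the only sub-clusters with 50 or more cells in each library. Over these 2 alone, given the same weights in both libraries, the ratio was -0.03 for Ncf1, -0.08 for Cyba, -0.04 for Rac2 and 0.12 for Ncf4, where all granulocytes gave -0.29, 0.30, 0.23 and 0.16. The part of the class make-up in the latter was not tested. Cybb was at -0.42 over the same 2 sub-clusters, with -0.31 (-0.67 to 0.04) in sub-cluster 0 and -0.79 (-1.46 to -0.09) in sub-cluster 1, where it rested on 30 and 54 UMIs. Sub-clusters 0 and 1 carried 29.0% and 4.83% of the granulocyte Cybb UMIs in Ctrl and only 4.92% and 2.41% in KD, so that value leaves out most of the gene's mRNA. Without sub-clusters 2 and 3, left out after the data were seen because nearly all of their cells came from KD, the Cybb ratio was 0.49. Rac2 was 423.9 and 414.4 CPM in sub-cluster 0 and 928.6 and 782.0 in sub-cluster 4, and Cyba was 963.9 and 830.2 in the former and 1816 and 2207 in the latter.

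**Figure D3:**
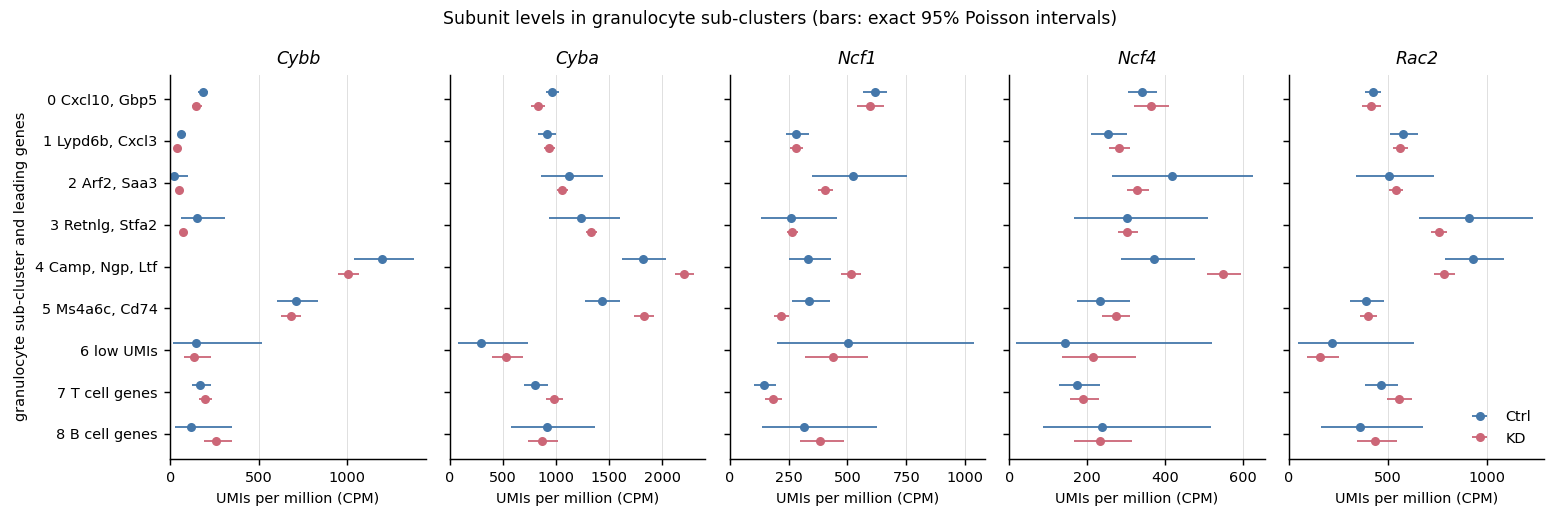
Levels of the 5 subunits in 9 granulocyte sub-clusters are plotted in CPM (linear axis from 0) for Ctrl (blue) and KD (red), with exact 95% Poisson intervals and the leading genes of each sub-cluster beside its number. Cybb is high in sub-clusters 4 and 5 and low in sub-clusters 1 and 2. Ncf1 has its highest values in sub-cluster 0, where some other sub-clusters overlap it, and the wide bars mark sub-clusters with few Ctrl cells.

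The macrophages fell into 11 sub-clusters, of which 7 had at least 50 cells in each library. Among these 7, Cybb was highest in Ctrl in sub-cluster 3, led by the monocyte genes Chil3 and Vcan (1294 CPM in Ctrl and 1054 in KD), and in KD in sub-cluster 4, led by Il1a, Inhba and Il1b (1257 and 1263). It was lowest in sub-cluster 5, led by cell cycle genes, in Ctrl (553.6 and 667.0). Cybb and Cyba, the genes of the membrane flavocytochrome, had ratios of opposite sign in some of these sub-clusters. None of their ratios passed the fold threshold, and the intervals cover counting error only. Opposite signs were not counted for other pairs of genes. They therefore have no reference and are not read as a result about the subunits. In sub-cluster 3 Cybb was lower in KD, at -0.30 (-0.37 to -0.22), and Cyba higher, at 0.44 (0.37 to 0.50). In sub-cluster 0, led by Hspa1a and Fos, and in sub-cluster 2, led by Mmp12 and Ccl8, the signs were opposite. There Cybb was 0.36 (0.31 to 0.42) and 0.21 (0.14 to 0.29) higher, and Cyba lower at -0.19 (-0.22 to -0.15) and -0.26 (-0.30 to -0.22). Sub-cluster 4 showed neither, with Cybb at 0.01 (-0.07 to 0.09) and Cyba at 0.02 (-0.05 to 0.08). Ncf1 was distinguished in 1 of the 7 sub-clusters, the cycling one, at 0.33 (0.10 to 0.56), and Ncf4 was also higher there, at 0.28 (0.11 to 0.44). Rac2 ran from -0.44 (-0.58 to -0.29) in sub-cluster 2 to 0.41 (0.09 to 0.74) in sub-cluster 7, which carried 9 granulocyte markers. Sub-cluster 6, led by Ltc4s and Fn1, held 13 Ctrl and 497 KD cells, and its KD levels were 970.6 CPM for Cybb and 2262 for Cyba.

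**Figure D4:**
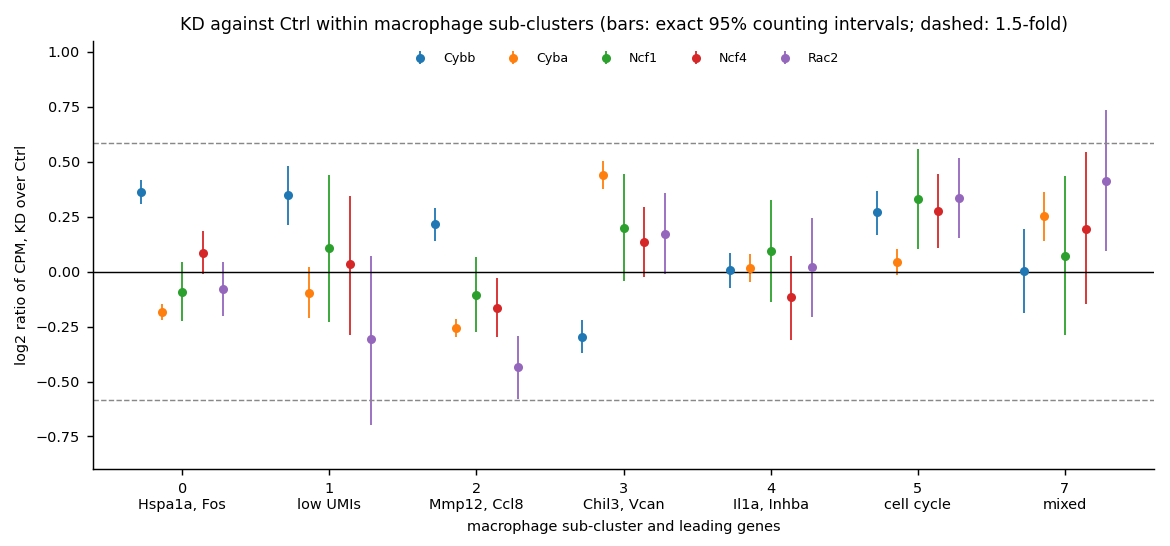
The vertical axis gives the log2 ratio of CPM, KD over Ctrl, for the 5 subunits in the 7 macrophage sub-clusters that held 50 or more cells in each library, with exact 95% counting intervals and dashed lines at 1.5-fold. The intervals of Cybb and Cyba lie on opposite sides of 0 in sub-clusters 0, 2 and 3, and they cover counting error only.

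The cDCs were also divided by the markers a cell held. Cells with Xcr1 or Clec9a, markers of the cDC1 lineage, had 160.1 CPM of Cybb in Ctrl (138.3 to 184.3) and 111.5 in KD (95.9 to 128.9), from 137 and 158 cells. Cells with Cd209a had 378.4 and 343.0, and cells with Ccr7 or Fscn1, markers of mature dendritic cells, had 385.8 and 272.7. Cybb was thus lower in the Xcr1 or Clec9a cells than in either other set in both libraries, without overlap of the intervals. In each of the 3 sets Cybb was lower in KD than in Ctrl, with overlapping intervals for the Cd209a cells, the opposite of the cDCs as a whole, which also hold cells with none of these markers or with several. Ncf4 of the Xcr1 or Clec9a cells was 179.2 and 140.8 CPM, above the 121.2 and 86.2 of the Ccr7 or Fscn1 cells. Among the 3 T cell clusters, Rac2 lay between 492.1 and 564.4 CPM in Ctrl and between 548.1 and 643.7 in KD, with the CD4-led cluster 9 at the bottom in Ctrl and at the top in KD.

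The wider pathway was followed through lists of genes. In granulocytes the kinase gene Pik3cg, which acts upstream of the oxidase, was higher in KD, at 0.63 (0.14 to 1.16). Rac1, the widely expressed relative of Rac2, was at 0.17 (0.06 to 0.28) in granulocytes and 0.08 (0.04 to 0.12) in macrophages. Cybc1, whose product helps to fold the flavocytochrome, was not distinguished in either, at 0.20 (-0.16 to 0.57) and 0.09 (-0.03 to 0.22). Of the 9 other NOX family genes 0 reached 200 UMIs in any of the 6 classes.

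Genes that supply NADPH or handle oxidants were followed next. In granulocytes 3 of 4 measured NADPH supply genes were higher in KD, beside 12.7% of all 4614 genes. They were Tkt at 1.07 (0.87 to 1.27), G6pdx at 1.03 (0.59 to 1.49) and Pgd at 0.73 (0.54 to 0.93), all of the pentose phosphate pathway. In macrophages 1 of 5 was higher, Idh1 at 1.22 (1.10 to 1.33), beside 4.41% of all genes. The count higher was 0 of 3 measured in cDCs, 0 of 1 in pDCs, 0 of 2 in B cells and 0 of 4 in T cells. The shares of all genes were 3.36%, 2.57%, 1.31% and 3.35%. With so few genes measured, these counts set no contrast between classes. Of 12 oxidant handling genes in granulocytes, Gclm (1.01) and Gpx1 (0.76) were higher, beside 12.7% of all genes. Sod2, the mitochondrial superoxide dismutase, was lower at -1.03 (-1.13 to -0.94), beside 13.5%. These counts lie near the shares of all genes and are not read as a result about the list. Of 14 in macrophages, Gclm (0.97), Gsr (0.81) and Gpx1 (0.65), which make or use glutathione, were higher, beside 4.41% of all genes. Txn1 (-0.64) and Sod2 (-0.59) were lower, beside 7.15%. Triggering receptors were mixed. In granulocytes Clec7a, the receptor dectin-1 for fungal glucan, was lower at -1.48 (-1.54 to -1.41) and the Fc receptor gene Fcgr4 at -1.31 (-1.43 to -1.18). These were 2 of 12 lower, near the 13.5% of all genes, with 0 of 12 higher beside 12.7%. In macrophages Itgam (0.86) and Fpr1 (0.66) were higher and Fcgr4 lower (-0.83), of 13 measured, beside 4.41% of all genes higher and 7.15% lower.

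Genes of the interferon axis were lower in KD granulocytes and macrophages taken as whole classes. Of the interferon-gamma targets measured, 9 of 9 were lower in KD granulocytes, with a median of -2.41, beside 13.5% of all genes. In macrophages 9 of 10 were lower, with a median of -1.29, beside 7.15% of all genes. The lowest were Cxcl10 (-3.83), Gbp4 (-3.46) and Irgm1 (-3.00) in granulocytes and Socs1 (-1.56), Gbp4 (-1.56) and Cxcl10 (-1.37) in macrophages. Granulocyte sub-cluster 0, led by Cxcl10 and Gbp5, made up 57.95% of Ctrl and 12.9% of KD granulocytes. The part of the class make-up in these ratios was not tested. The regulators Irf1 and Irf8 of the same axis were lower as well, at -1.94 and -1.23 in granulocytes and -1.13 and -0.89 in macrophages. Irf8, a known activator of Cybb transcription, was 479.9 CPM in Ctrl and 258.1 in KD macrophages, where Cybb was 0.18 higher in KD. Spi1, which encodes PU.1, was 453.8 and 451.8 CPM in macrophages, at -0.01 (-0.04 to 0.03), and 463.3 and 708.3 in granulocytes, at 0.61 (0.52 to 0.71). Cebpe (1.29) was also higher in granulocytes and Cebpa (0.80) in macrophages. In pDCs, highest in Cybb, Irf8 was 2568 and 2236 CPM and Spi1 71.4 and 124.5.

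**Figure D5:**
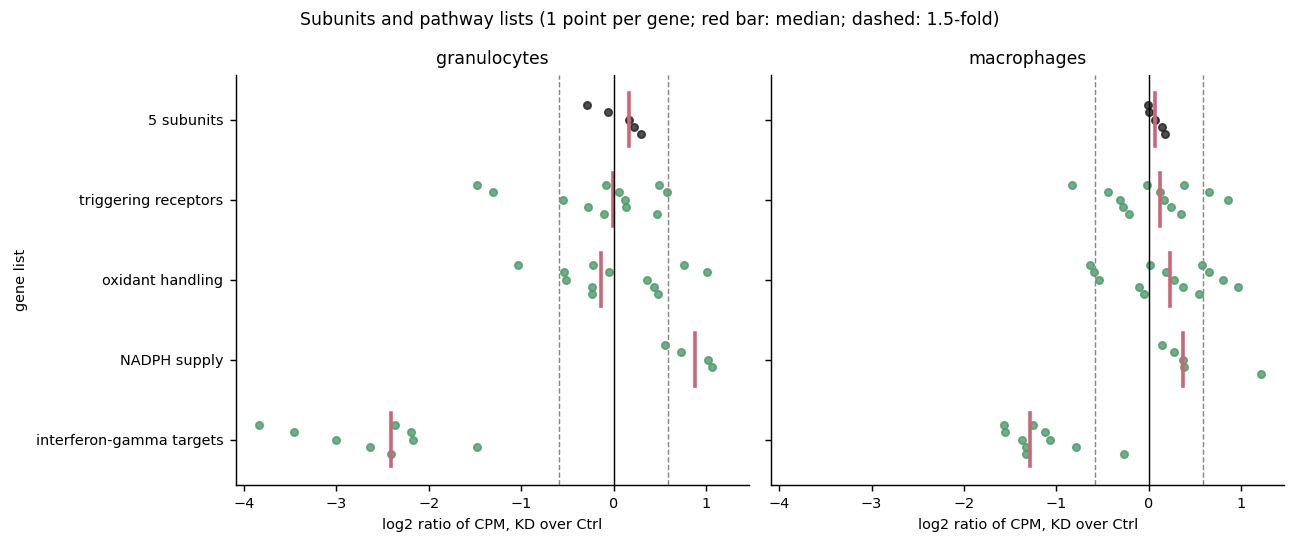
Points give the log2 ratio of CPM, KD over Ctrl, of the 5 subunits (black) and of the genes with at least 200 UMIs in 4 pathway lists (green), in granulocytes and macrophages, with red bars for medians and dashed lines at 1.5-fold. The subunits sit near 0 with medians of 0.16 and 0.07, while the interferon-gamma targets have medians of -2.41 and -1.29.

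Across the 20 profiles of 10 classes in 2 libraries, the genes most like each subunit were sought among 13440 genes by Pearson r of log2(CPM + 1). These profiles share libraries and class depths, so r is a description. Cybb was most like Unc93b1 (r = 0.97), Ctsh (0.96) and Clec12a (0.94). Cyba was most like Ucp2 (0.91), Tnfaip8l2 (0.89) and Ptpn1 (0.88). Ncf1 was most like the unnamed gene ENSMUSG00000121485 (0.93), Fgr (0.93) and Atp6v0d1 (0.92), Ncf4 most like Snx20 (0.94), Cklf (0.93) and Plek (0.91), and Rac2 most like Ptprc (0.97), Rassf5 (0.96) and Grk2 (0.94). Ptprc encodes CD45, the antigen on which the cells were enriched. No subunit had another subunit among its 3 most like genes. Between the subunits r was highest for Cybb with Ncf1 (0.87) and Cyba with Ncf4 (0.83) and lowest for Cybb with Rac2 (0.24).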

How the data were processed

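Droplet-based 3' single-cell RNA sequencing (10x Genomics chemistry v3.1) covered 2 libraries of CD45+ cells, Ctrl and KD, 1 per group, grouped by the hairpin in the labels. The matrices deposited by the authors give raw UMI counts, genes by barcodes, with no normalization. The submitters' processing notes name Cell Ranger 7.1.0, Seurat 5.1.0, R 4.4.1 and the build GRCm39. The annotation release and the use of intronic reads are not given in the sources used here.

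Of 21359 barcodes 19999 were kept as cells, those between 200 and 6000 genes with no more than 30000 UMIs and 10% of UMIs from mitochondrial genes. After log-normalization, Seurat 5.3.0 under R 4.3.3 clustered the cells on 20 principal components at resolution 0.5. Of 2000 variable genes 1983 were used, since the subunits and pathway genes were left out. A cluster was named where at least 3 markers of a class were 1 log2 unit above the other cells and present in 10% of cells. This rule gave 20 clusters, and 1 stayed unnamed. Granulocytes and macrophages were re-clustered in the same way. Doublets were treated by the upper limits alone. As an alternative 771 Ctrl and 830 KD cells of highest Scrublet score (scanpy 1.11.5) were left out.

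UMIs were summed per class and library and divided by the class total. Poisson, Clopper-Pearson and conditional binomial intervals at 95% (scipy 1.17.1) cover counting error only. A difference was called at 1.5-fold, among genes of at least 200 UMIs. Interval coverage was checked on simulated Poisson counts, the error the intervals assume, so the check does not bear on variation between mice or libraries. All 5 subunits were described in every class, and in each sub-cluster of at least 50 cells per library. Per pathway list, the 3 highest and 3 lowest ratios past 1.5-fold were named, and Rac1, Cybc1, Spi1 and Irf8 in any case. Some genes of these lists are not reported here. The subunits and lists were chosen with earlier results of these data known. Alternatives changed the cell filter, doublets, resolution, classing, scaling (TMM, edgeR 4.0.16), weights, depth, variable genes and the UMI minimum.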

Additional observations from a re-analysis of the deposited data

Results flagged for a closer look

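Ncf1 was marked because its KD over Ctrl ratio in pDCs and in macrophages lay on opposite sides of 0. The log2 ratio was -0.89 in pDCs and 0.14 in macrophages, and the difference between them was -1.02. Each value compares 1 library with 1 library, so the difference was not tested.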

How the results depend on the processing

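Each group is 1 library of 3 pooled mice, so no alternative could leave out a replicate. No paired analysis was possible because each group has 1 library and the result comes from no test. The count of subunits at least 1.5-fold apart differed from the main value in 4 cases. Without likely doublets it was 1 in T cells (Cybb, 0.73), and with cells classed by their own markers it was 1 in cDCs (Cybb, 0.63). After thinning to 1500 UMIs it was 2 in pDCs (Ncf1, -0.62, and Ncf4, 2.19) and 1 in T cells (Cybb, 0.70). The causes were not tested. Ncf1 in pDCs stayed past 1.5-fold under all 8 alternatives, from -0.89 to -0.62. Of the 30 pairs of a subunit and a class, 17 kept their sign under every alternative run and 13 did not. Leaving out sub-clusters with markers of another class, or mostly from 1 library, was chosen after seeing the data and left 0 subunits past 1.5-fold in granulocytes and macrophages. No granulocyte sub-cluster was led by cell cycle genes, so that alternative gave no value there. With a minimum of 50 UMIs, 29.9% of granulocyte and 15.7% of macrophage genes were 1.5-fold apart, against 26.2% and 11.6% with 200 UMIs. The same change took cDCs from 3.36% to 6.48% higher and from 3.62% to 5.48% lower, and both directions together in pDCs from 10.0% to 15.9%, B cells from 3.69% to 11.3% and T cells from 5.89% to 11.4%. Differences in classes of few cells, such as pDCs, are limited by their UMIs.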
